A study of Mus musculus with 6 samples.

Results

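The clustered histone genes encode the core histones H2A, H2B, H3 and H4 and the linker histone H1, and they are the rows of the gene count table whose symbols begin with Hist1h, Hist2h, Hist3h or Hist4h and do not carry the pseudogene ending. They numbered 63 of the 27506 genes in the table, namely 5 H1, 17 H2A, 17 H2B, 11 H3 and 13 H4 genes. The Hist1 cluster on chromosome 13 held 51 of them, the Hist2 cluster on chromosome 3 held 9, the Hist3 cluster on chromosome 11 held 2, and *Hist4h4* on chromosome 6 stood alone. RNA-seq had been performed on dental pulp of the mandibular first molar at P3.5 (3.5 days after birth) from C57BL/6 mice, with 3 libraries from *Ror2fl/fl* controls and 3 from *Osr2-Cre;Ror2fl/fl* mice, called mutants below. By the labelled genotypes, both groups carry the floxed allele of *Ror2*, a receptor for Wnt ligands, and only the mutants carry *Osr2-Cre*. This Cre removes *Ror2* in the dental mesenchyme but not in the dental epithelium. The labels do not say whether each library came from a separate animal or from pooled teeth, so the p-values measure the spread between these libraries, which may be technical. The sample names of the 2 groups come from different number series that the labels do not explain, so any difference in handling cannot be told apart from the genotype. The question asked of the histone genes was whether their mRNA levels differed between mutants and controls at the onset of root formation.

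Each nucleosome wraps DNA around an octamer of core histones, and H1 binds where the DNA enters and leaves it. Most clustered histone genes are transcribed in S phase, when new DNA has to be packaged, under the coactivator *Npat*. Their mRNAs usually lack a poly(A) tail and end instead shortly after a stem-loop that is bound by *Slbp*, although some of the genes also give longer, polyadenylated transcripts in cells that have stopped dividing. The way RNA was selected for the libraries is not given in the sources used here. The values below are therefore levels as these libraries captured them.

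The stem-loop was looked for in the GENCODE M21 transcripts (GRCm38, the assembly also called mm10) as the letters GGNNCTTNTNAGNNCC on the transcript strand. It was found in 44 of the 63 genes. In the last 100 bases of the annotated transcript it was found in 32.9% of the 70 histone transcripts, against 0.00646% of 139246 transcripts of other genes. The sequences of the genes that carried most of the counts or stood at the centre of the comparisons are shown 5′ to 3′ so that the shared element can be seen, with the stem-loop in capitals and up to 5 flanking bases in lower case.
Hist1h1c: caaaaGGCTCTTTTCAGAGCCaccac
Hist3h2a: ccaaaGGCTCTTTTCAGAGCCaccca
Hist2h2aa1: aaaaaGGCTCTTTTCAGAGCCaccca
Hist2h2aa2: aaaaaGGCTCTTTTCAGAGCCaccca
Hist1h2ao: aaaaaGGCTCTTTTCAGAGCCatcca
Hist1h2ap: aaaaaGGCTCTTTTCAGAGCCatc
Hist3h2ba: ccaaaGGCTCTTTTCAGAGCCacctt
Hist2h3c2: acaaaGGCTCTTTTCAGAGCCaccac
Hist1h3e: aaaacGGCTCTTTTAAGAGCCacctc
Hist1h4h: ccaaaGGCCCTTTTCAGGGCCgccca
Hist2h4: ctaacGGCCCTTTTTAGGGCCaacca
The H1, H2A, H2B and H3 genes mostly shared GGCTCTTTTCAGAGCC, which was present in 25 genes, while 7 H4 genes carried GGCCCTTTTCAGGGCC and no H4 gene carried the former. The flanks shown for *Hist2h2aa1* and *Hist2h2aa2* were identical letter for letter. Such identity extended well beyond the stem-loop. All 75-base stretches of each gene's transcripts, matching the read length, were compared between genes on the same transcript strand. Of the 63 genes, 59 shared at least 1 stretch with another gene and 26 shared more than 50% of their stretches. Only *Hist1h1a*, *Hist1h1b*, *Hist2h2be* and *Hist2h4* shared none. Reads from shared stretches cannot be assigned to a single gene, and among the histone genes only 9.52% of the deposited values were whole numbers, against 47.8% over all genes.

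The libraries held between 56134770 and 62628940 estimated counts, of which 6022 to 12698.5 were given to the histone genes. *Ror2* was read at 38.2, 36.2 and 36.7 CPM (counts per 1000000 counts of a library, after TMM scaling between libraries) in the controls and at 27.9, 28.1 and 26.3 CPM in the mutants, a log2 fold change of −0.43 ± 0.08 (SE, adjusted p = 0.0134, edgeR quasi-likelihood test). The *Ror2* call was lost without control library 2 (−0.46, adjusted p = 0.0664) or control library 3 (−0.45, adjusted p = 0.0752). Although the tissue was labelled dental pulp, 8 genes of the dental epithelium, dominated by the enamel matrix genes *Amelx* and *Ambn*, summed to between 171400 and 191700 CPM in controls and between 185000 and 255200 CPM in mutants. All 8 markers of dental mesenchyme and all 6 of odontoblasts were detected as well. The libraries were thus of mixed cell types, and in such samples fewer cells of a type and less RNA per cell cannot be told apart. Of 19330 genes tested, 3906 passed an adjusted p of 0.05, which is 20.2% of those tested, with 10.4% higher and 9.84% lower in mutants. The median log2 fold change over all genes tested was 0.01.

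The histone counts came from few genes. The 6 genes with the most counts, namely *Hist1h1c*, *Hist3h2a*, *Hist1h2bc*, *Hist2h2aa2*, *Hist3h2ba* and *Hist2h2aa1*, held 81.5% of all histone counts, and with *Hist2h2be* and *Hist1h2ap* the share was 88.0%. Only 28 of the 63 genes passed the filter on low counts. None of the other 35 exceeded 41 counts in any library, and 18 had at most 10 counts in every library. Per kilobase of transcript, averaged over the 6 libraries, *Hist1h1c* stood at 25.3 CPM per kb, *Hist2h2aa2* at 24.4 and *Hist3h2ba* at 19.0, and the tenth gene in this order, *Hist2h3c2*, stood at 1.76. *Hist1h1a* and *Hist1h1b*, encoding the linker histones H1.1 and H1.5, were read at only 0.0905 and 0.0959 CPM per kb.

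**Figure D1:**
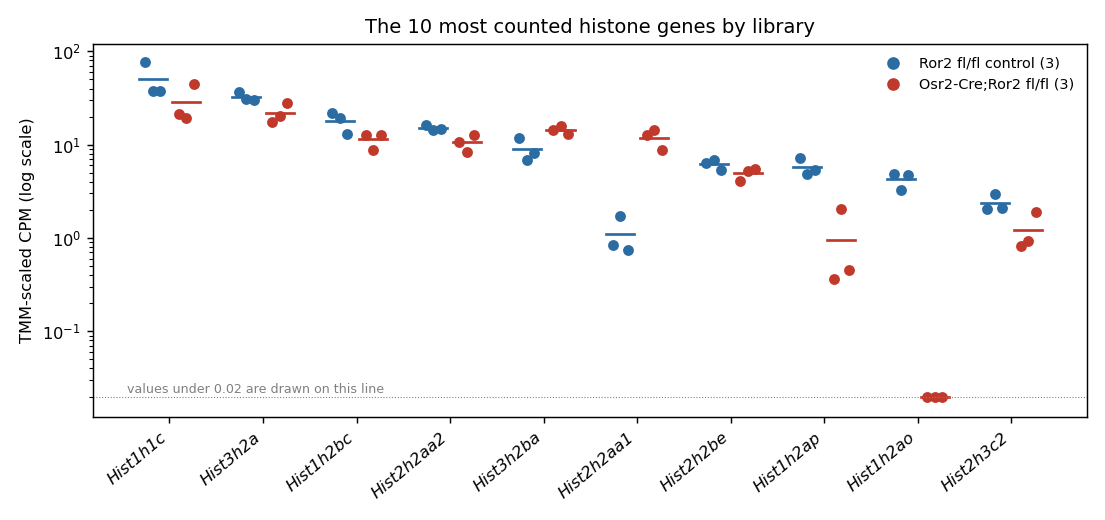
TMM-scaled CPM on a log scale for the 10 histone genes with the most counts, with 1 point per library and a line at each group's mean (controls blue, mutants red). Hist1h2ao fell to 0 in all 3 mutants and Hist2h2aa1 rose from at most 1.72 CPM to at least 8.70 CPM, while the groups of Hist1h1c and Hist2h2be overlapped.

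Among the 28 histone genes tested, 4 were higher and 2 were lower in mutants at an adjusted p of 0.05. The 4 higher genes were *Hist2h2aa1*, *Hist3h2ba*, *Hist1h2bj* and *Hist2h3b*, and the 2 lower genes were *Hist1h2ao* and *Hist1h2ap*. The 6 genes are 21.4% of those tested, a share near the 20.2% of all genes. The groups did not overlap for 13 of the 28 genes (46.4%, against 44.7% of all genes), 4 of them higher and 9 lower. At an unadjusted p of 0.05, 12 genes passed, 4 higher and 8 lower, beside 38.3% of all genes. The median log2 fold change of the 28 genes was −0.19, with 15 genes below 0 and 13 above. Of the 9 histone genes that shared at most 10% of their stretches with other genes, 5 were tested and 0 were called by the edgeR quasi-likelihood test, 1 of them with an unadjusted p under 0.05.

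**Figure D2:**
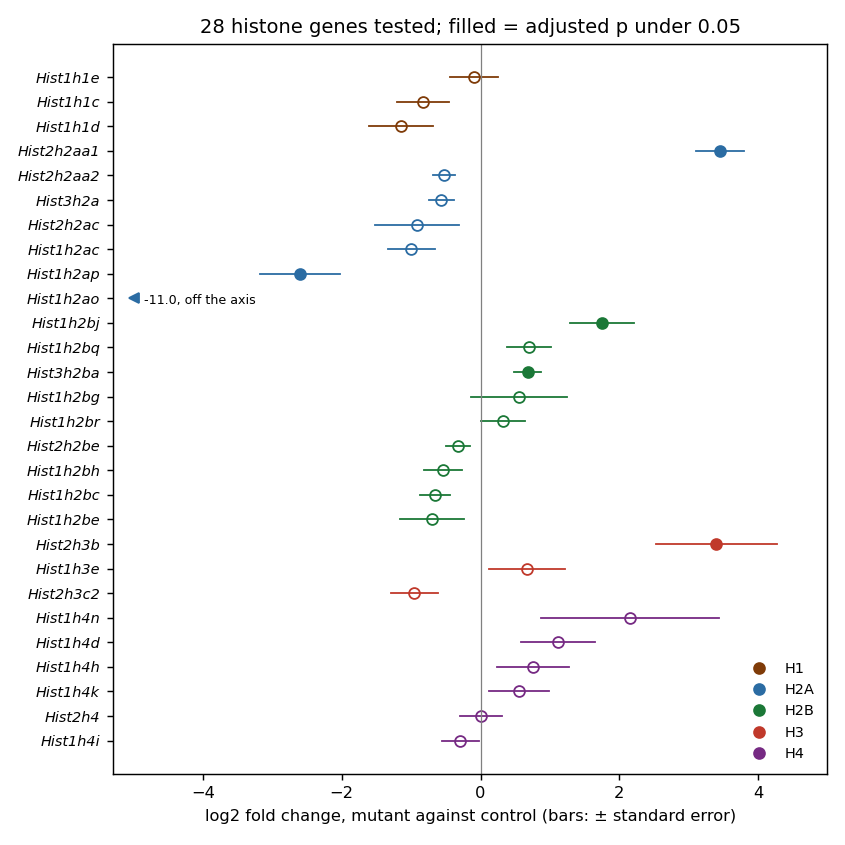
Log2 fold change of mutants against controls with its standard error for the 28 histone genes tested, coloured by histone type. Filled symbols mark the 6 genes with an adjusted p under 0.05, which lie between 0.68 and 3.45 for the 4 higher genes, at −2.60 for Hist1h2ap and off the axis for Hist1h2ao.

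Because copies share sequence, the counts of each histone type were also summed and tested in the same fit. The H2A sum was 66.8, 55.9 and 56.8 CPM in the controls and 42.1, 46.1 and 50.7 CPM in the mutants, so that every mutant library lay below every control library. Its log2 fold change was −0.37 ± 0.11 (SE, adjusted p = 0.0496, edgeR quasi-likelihood test). The call rested on a value just inside the threshold: it was lost without control library 1 (−0.29), control library 2 (−0.43), control library 3 (−0.42), mutant library 1 (−0.31) or mutant library 2 (−0.36), and kept without mutant library 3 (−0.44). The H2B sum ran from 31.1 to 44.1 CPM in controls and from 33.7 to 37.3 CPM in mutants, with a log2 fold change of −0.08 ± 0.13 (adjusted p = 0.677). The H3 sum was far smaller, at 2.62 to 3.70 CPM in controls and 1.53 to 3.74 CPM in mutants, with a log2 fold change of −0.20 ± 0.31 (adjusted p = 0.663). The H1 and H4 sums, in which single libraries stood apart, are described with their genes. All 63 genes together summed to 197, 140.2 and 132 CPM in controls and 102, 115 and 141 CPM in mutants, and the groups overlapped. By cluster, the *Hist1* genes summed to 122, 75.7 and 70.1 CPM in controls and 40.9, 47.5 and 69.7 CPM in mutants, and the *Hist2* genes to 26.7, 27.0 and 24.0 CPM in controls and 29.3, 30.7 and 30.04 CPM in mutants. Neither cluster overlapped between groups, beside 44.7% of all genes without overlap, with *Hist1* lower in mutants by a narrow margin and *Hist2* higher. The direction of the *Hist2* sum turned when *Gm20634*, a gene described below that shares sequence with *Hist2h2aa1* and *Hist2h2aa2*, was added, to 48.6, 58.5 and 52.0 CPM in controls and 40.8, 39.0 and 48.4 CPM in mutants. The cluster sums were not tested, and the addition was chosen after the values were seen.

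**Figure D3:**
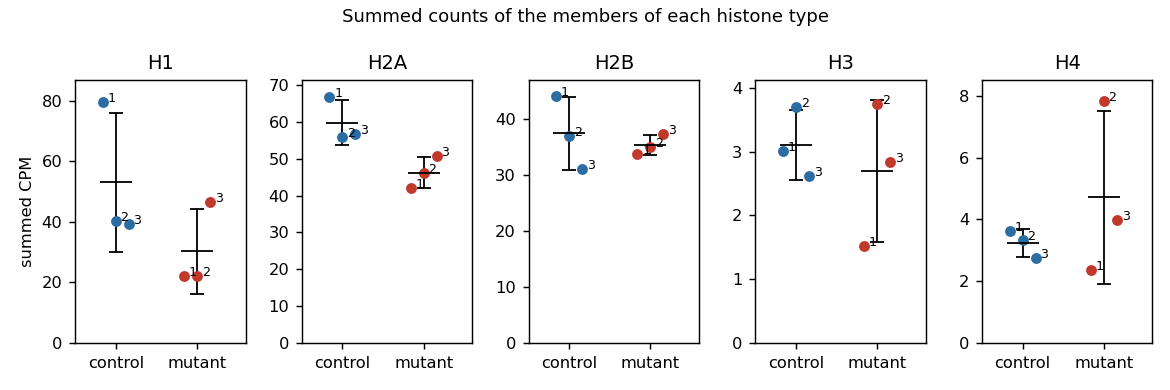
Summed CPM of the histone genes of each type in each library, numbered 1 to 3 within the group, with the mean and SD of the 3 libraries in black and each axis starting at 0. The groups are separate only for H2A, where controls lie between 55.9 and 66.8 CPM and mutants between 42.1 and 50.7 CPM; control library 1 is highest for H1 and mutant library 2 for H4.

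Of the somatic linker histones, *Hist1h1c* (H1.2, chr13:23738808-23740367) supplied 94.9% of the H1 counts. It was read at 76.5, 37.9 and 37.2 CPM in controls and at 21.3, 19.4 and 44.6 CPM in mutants. Control library 1 and mutant library 3 each stood well above the others of their group, and mutant library 3 exceeded both lower controls. The log2 fold change of −0.83 ± 0.38 did not pass (adjusted p = 0.144, edgeR quasi-likelihood test). Without control library 1 it was −0.41, and without mutant library 3 it was −1.32 and passed (adjusted p = 0.0311). *Hist1h1d* (H1.3) was read at 1.86, 0.968 and 1.06 CPM in controls and at 0.239, 0.726 and 0.779 CPM in mutants. Its groups did not overlap, but the log2 fold change of −1.15 ± 0.46 did not pass (adjusted p = 0.106). *Hist1h1e* (H1.4), at 0.877 to 1.27 CPM in controls and 0.651 to 1.53 CPM in mutants, had a log2 fold change of −0.09 ± 0.35. *Hist1h1a* and *Hist1h1b* were too low to test and did not exceed 0.225 CPM in any library. The H1 sum was accordingly 79.6, 40.3 and 39.2 CPM in controls and 22.2, 22.1 and 46.4 CPM in mutants (log2 fold change −0.81 ± 0.36, adjusted p = 0.137), and without mutant library 3 it was −1.26 and passed.

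The H2A genes included a large rise and 2 large falls, all in genes that share most of their sequence. *Hist2h2aa1* (chr3:96245497-96246082, plus strand) was read at 0.833, 1.72 and 0.735 CPM in controls and at 12.8, 14.3 and 8.70 CPM in mutants. The groups were far apart, with a log2 fold change of 3.45 ± 0.34 (adjusted p = 0.000772, edgeR quasi-likelihood test), and the call of its own row was kept under each of the 17 alternatives fitted to single genes. Its neighbour *Hist2h2aa2* (chr3:96239749-96240276, minus strand) was read at 16.4, 14.4 and 14.9 CPM in controls and at 10.7, 8.29 and 12.7 CPM in mutants, with a log2 fold change of −0.53 ± 0.16 (adjusted p = 0.0523). The genes are near-identical copies: 88.9% of the stretches of *Hist2h2aa1* and 100% of those of *Hist2h2aa2* occur in other genes. *Hist2h2aa1* took 4.84%, 10.6% and 4.70% of the counts of the pair in controls and 54.5%, 63.3% and 40.6% in mutants. The pair together summed to 17.2, 16.1 and 15.6 CPM in controls and 23.4, 22.6 and 21.4 CPM in mutants.

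Another gene shares this sequence. *Gm20634* (chr3:96245554-96248509, plus strand), which overlaps *Hist2h2aa1* and is not among the 63 genes, contains every stretch of *Hist2h2aa2*. It was read at 21.8, 31.5 and 28.0 CPM in controls and at 11.4, 8.37 and 18.4 CPM in mutants, with a log2 fold change of −1.09 ± 0.27 (adjusted p = 0.0284, edgeR quasi-likelihood test). Its counts fell while those of *Hist2h2aa1* rose, although the call for *Gm20634* was lost without control library 2 (−0.98), control library 3 (−1.07) or mutant library 1 (−1.01). The 3 genes together summed to 39.1, 47.6 and 43.6 CPM in controls and 34.9, 31.0 and 39.8 CPM in mutants, so the highest mutant library passed the lowest control library. This sum was chosen after the values were seen and was not tested. It leaves out *Gm20633* and *Gm20632*, which match on the opposite strand. *Gm20633* contains every stretch of *Hist2h2aa1* and of *Hist2h2aa2*. *Gm20632* contains 96.1% of those of *Hist2h2aa1* and 100% of those of *Hist2h2aa2*. The rise of *Hist2h2aa1* is thus uncertain as a change of that gene, since its counts cannot be told apart from those of its copies. With *Gm20634* added to the H2A sum, an alternative chosen after seeing the data, the log2 fold change of H2A was −0.56 (adjusted p = 0.0158). *Gm20634* also contains 62.6% of the stretches of the H3 gene *Hist2h3c2* and 78.5% of those of the H3 gene *Hist2h3b*. Its counts may therefore include H3 sequence.

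**Figure D4:**
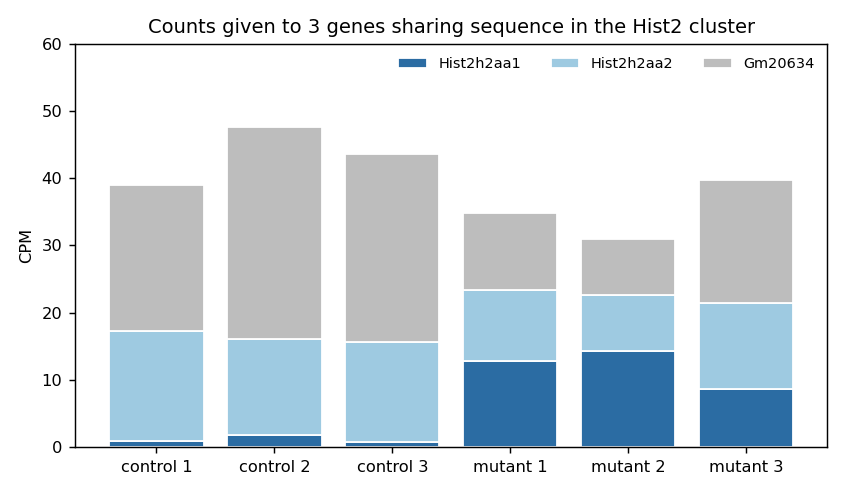
CPM given to Hist2h2aa1, Hist2h2aa2 and Gm20634 in each library, stacked from 0. Hist2h2aa1 holds 40.6% to 63.3% of its pair with Hist2h2aa2 in mutants and 4.70% to 10.6% in controls, while the height of the stack runs from 39.1 to 47.6 CPM in controls and from 31.0 to 39.8 CPM in mutants.

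*Hist1h2ao* and *Hist1h2ap*, which encode replication-dependent H2A in the Hist1 cluster, fell together. *Hist1h2ao* (chr13:21810465-21810944) was read at 4.90, 3.29 and 4.78 CPM in controls and received 0 counts, within rounding, in each mutant library. Against a floor of 3 counts per library, the counts given to its row were at least 84.4-fold lower in mutants (adjusted p = 0.000163, edgeR quasi-likelihood test). This is no bound for the gene itself, because 93.1% of its stretches occur in *Hist1h2ap*, whose counts in mutants could belong to either gene. For the 2 genes together, the mutant mean was 0.0943 times the control mean. The call of the *Hist1h2ao* row was kept under each of the 17 alternatives fitted to single genes, but not when genes sharing stretches were summed, as given below. *Hist1h2ap* (chr13:21833026-21833507) was read at 7.24, 4.84 and 5.35 CPM in controls and at 0.365, 2.05 and 0.454 CPM in mutants, with a log2 fold change of −2.60 ± 0.57 (adjusted p = 0.0194). The call for *Hist1h2ap* was lost without control library 1 (−2.42), control library 2 (−2.73) or control library 3 (−2.67), and without mutant library 2 the log2 fold change was −3.79. About as much of each gene is shared: 93.1% of the stretches of *Hist1h2ao* and 92.6% of those of *Hist1h2ap* occur in other genes. The pair summed to 12.1, 8.13 and 10.1 CPM in controls and 0.365, 2.05 and 0.454 CPM in mutants. With all 16 H2A genes that are linked by shared stretches summed, *Hist2h2aa1* and *Hist2h2aa2* among them, the values were 30.5, 25.2 and 26.7 CPM in controls and 24.7, 26.0 and 22.6 CPM in mutants. The groups overlapped, and the log2 fold change of this sum was −0.17 ± 0.11 (adjusted p = 0.281, edgeR quasi-likelihood test), so no fall was called for these 16 genes as a sum. The sum leaves out *Gm20634*. With it added, the 17 genes summed to 52.3, 56.7 and 54.7 CPM in controls and 36.1, 34.4 and 40.9 CPM in mutants. Those groups were separate, and that sum was not tested. When *Hist1h2ao* and *Hist1h2ap* were added to the 3 genes of the Hist2 cluster, the sums were 51.2, 55.8 and 53.7 CPM in controls and 35.2, 33.0 and 40.3 CPM in mutants. The sum of the pair, that of the 17 genes and that of the 5 genes were chosen after the values were seen.

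The most counted H2A gene was *Hist3h2a* (chr11:58954685-58956830), which held 51.2% of the H2A counts. It was read at 36.4, 30.6 and 30.1 CPM in controls and at 17.4, 20.1 and 28.1 CPM in mutants. Every mutant library was below every control library, and the log2 fold change of −0.57 ± 0.18 missed the threshold (adjusted p = 0.0559, edgeR quasi-likelihood test). Without mutant library 3, the highest mutant, it was −0.79 and passed (adjusted p = 0.0105). *Trim17* contains 30.6% of its stretches, and a sum with *Trim17*, chosen after the values were seen, left the groups separate at 30.5 to 36.7 CPM in controls and 17.6 to 28.5 CPM in mutants.

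Its neighbour *Hist3h2ba* (chr11:58948920-58949533), an H2B gene, went the other way. It was read at 11.7, 6.87 and 8.24 CPM in controls and at 14.2, 15.7 and 13.2 CPM in mutants, with no overlap and a log2 fold change of 0.68 ± 0.19 (adjusted p = 0.0425, edgeR quasi-likelihood test). Of 17 alternatives, 10 lost this call, with an adjusted p between 0.00878 and 0.204 over all of them. It was lost without control library 2 (0.52), control library 3 (0.62), mutant library 1 (0.69) or mutant library 2 (0.62). The Hist3 genes together ran from 37.5 to 48.1 CPM in controls and from 31.6 to 41.3 CPM in mutants.

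*Hist1h2bc* (chr13:23684199-23692908), a spliced H2B gene and the most counted of its type with 40.7% of the H2B counts, was read at 21.8, 19.3 and 12.9 CPM in controls and at 12.7, 8.79 and 12.8 CPM in mutants. Control library 3 and mutant library 3 were almost equal, and the log2 fold change of −0.65 ± 0.22 did not pass (adjusted p = 0.0672, edgeR quasi-likelihood test). *Hist2h2be*, which shares no stretch with other genes and was chosen after its values were seen for that reason, was read at 6.41, 6.93 and 5.33 CPM in controls and at 4.11, 5.25 and 5.51 CPM in mutants. Its groups overlapped, with a log2 fold change of −0.33 ± 0.17 (adjusted p = 0.191). *Hist1h2bj* was called higher on very few counts, 4.30, 2.12 and 4.64 in controls and 10.6, 11.1 and 14.0 in mutants. Its log2 fold change was 1.75 ± 0.46 (adjusted p = 0.0337), and 12 of 16 alternatives lost the call, those without control library 1 (1.77), control library 2 (1.48), control library 3 (2.02), mutant library 1 (1.81) or mutant library 3 (1.62) among them. Of the stretches of *Hist1h2bj*, 50.4% occur in other genes, *Hist1h2bq* and *Hist1h2bk* among them. *Hist1h2bk*, which was not tested, received 12.6, 3.3 and 9.8 counts in controls and 0 counts, within rounding, in each mutant library. Reads from these shared stretches cannot be assigned to a single gene. *Hist1h2bq*, with 96.1% of its stretches in *Hist1h2br*, ran from 0.606 to 0.877 CPM in controls and from 0.790 to 1.56 CPM in mutants. Its log2 fold change was 0.70 ± 0.32 (adjusted p = 0.141), and that of *Hist1h2br* was 0.33 ± 0.31 (adjusted p = 0.473, edgeR quasi-likelihood test). The pair summed to between 1.576 and 2.025 CPM in controls and between 1.574 and 3.255 CPM in mutants, with overlap. That pair sum was chosen after the values were seen and was not tested.

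The H3 genes were low throughout, and *Hist2h3c2* held 62.0% of their counts. *Hist2h3c2* (chr3:96238108-96239127) was read at 2.06, 2.93 and 2.11 CPM in controls and at 0.821, 0.935 and 1.89 CPM in mutants, with separate groups and a log2 fold change of −0.95 ± 0.34 (adjusted p = 0.0783, edgeR quasi-likelihood test). Without mutant library 3 it was −1.43 and passed (adjusted p = 0.0127). *Hist2h3b* in the same cluster received 5.95, 0.0555 and 2.95e-07 counts in controls and 18.6, 27.8 and 15.9 counts in mutants. It was called higher (log2 fold change 3.40 ± 0.87, adjusted p = 0.0316, edgeR quasi-likelihood test), a call lost without control library 2 (2.87), control library 3 (2.84), mutant library 1 (3.47) or mutant library 2 (3.12). Without control library 1, which held nearly all of its control counts, the fitted value was 7.41. These genes also share sequence: 78.5% of the stretches of *Hist2h3b* and 62.6% of those of *Hist2h3c2* occur in other genes. *Gm20634* contains the same percentage of each, whereas only 34.4% of the stretches of *Hist2h3c2* occur in *Hist2h3b*. The sum of *Hist2h3b* and *Hist2h3c2* overlapped between groups at 2.11 to 2.93 CPM in controls and 1.14 to 2.16 CPM in mutants. Neither this sum nor the H3 sum includes *Gm20634*, or *Gm20628*, which holds every stretch of *Hist2h3b* on the opposite strand. For *Hist1h3e*, in the Hist1 cluster, read at 0.261, 0.193 and 0.119 CPM in controls and 0.138, 0.506 and 0.273 CPM in mutants, the log2 fold change was 0.67 ± 0.55 (adjusted p = 0.394) and 0.11 without mutant library 2.

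No H4 gene was called, and 0 had an unadjusted p under 0.05. The H4 sum was 3.63, 3.33 and 2.75 CPM in controls and 2.35, 7.82 and 3.96 CPM in mutants, so that mutant library 2 alone stood far above the other 5. The log2 fold change was 0.54 ± 0.38 (adjusted p = 0.33, edgeR quasi-likelihood test), and without mutant library 2 it was −0.03. *Hist1h4h* showed the same pattern at 0.376, 0.485 and 0.400 CPM in controls and 0.318, 1.33 and 0.475 CPM in mutants, and without mutant library 2 its log2 fold change went from 0.76 to −0.06. *Hist2h4* (chr3:96261682-96263311), which shares no stretch with other genes, was read at 0.729 to 0.755 CPM in controls and 0.490 to 0.901 CPM in mutants, with a log2 fold change of 0.01 ± 0.30 (adjusted p = 0.99) whose sign turned under several alternatives. *Hist1h4i* gave −0.29 ± 0.26 (adjusted p = 0.446), *Hist1h4d* 1.12 ± 0.54 (adjusted p = 0.163), *Hist1h4k* 0.56 ± 0.43 (adjusted p = 0.374) and *Hist1h4n* 2.15 ± 1.28 (adjusted p = 0.248), and in each of the latter 3 the highest value was again that of mutant library 2. Without that library the log2 fold changes were 0.48 for *Hist1h4d*, 0.26 for *Hist1h4k* and 1.38 for *Hist1h4n*, and without control library 1 that of *Hist1h4n* was 4.53.

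Mutant library 2 also stood out among the genes too low to test. The 35 untested genes summed to 2.22, 1.89 and 1.71 CPM in controls and to 1.38, 6.70 and 1.81 CPM in mutants. Untested H4 genes reached 2.76 CPM in this library against at most 0.696 CPM in any other, and untested H3 genes 1.82 CPM against at most 0.594 CPM. *Hist4h4* was read at 0.711 CPM there and at most 0.136 CPM elsewhere. The same library had the highest haemoglobin reads among the mutants, with *Hbb-bs*, a beta globin gene, at 456 CPM against 104 and 152 CPM in the other mutants and 462, 265 and 297 CPM in the controls. The part of red cell precursors in these values was not tested.

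The annotated transcripts ended in different ways. For 25 genes the M21 annotation either runs more than 100 bases past the stem-loop or joins several exons, and these held 75.6% of the histone counts, with 17 of the 25 tested. A further 22 genes end within 100 bases of the stem-loop; they held 19.5% of the counts and 8 were tested. The remaining 16 had no such letters in the annotated transcript and held 4.89% of the counts. Per kilobase the classes lay closer together, with median levels of 0.322, 0.232 and 0.109 CPM per kb. Of the 22 genes with a short end, 17 remained when *Hist1h2ao*, *Hist1h2ap* and the genes of the Hist2 cluster were set aside, and these held 1.38% of the histone counts. They summed to 1.66, 1.45 and 0.978 CPM in controls and to 1.17, 4.64 and 1.72 CPM in mutants, mutant library 2 again being the highest. The genes with long or spliced transcripts summed to 159, 107 and 99.4 CPM in controls and 71.7, 77.3 and 111 CPM in mutants, with overlap. The limit of 100 bases was chosen after the values were seen, and the sums were not tested.

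**Figure D5:**
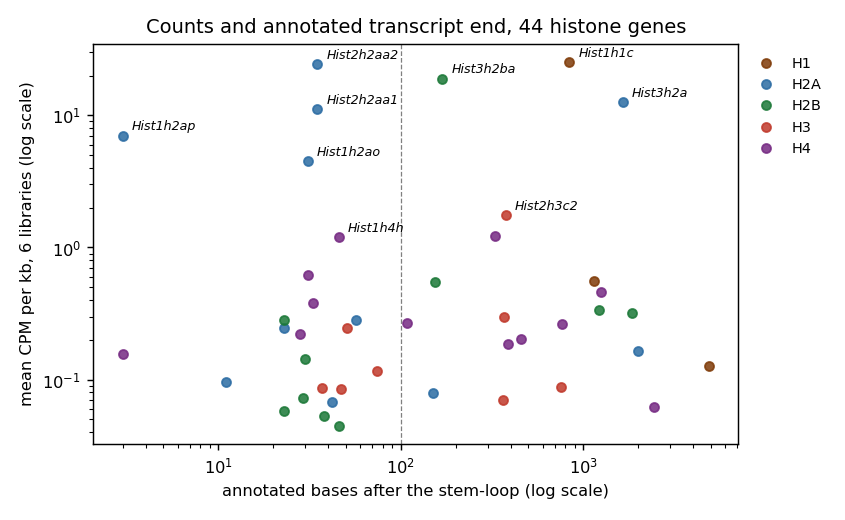
Mean CPM per kb of the 6 libraries against the number of annotated bases after the stem-loop for the 44 histone genes with the letters, both axes on a log scale, coloured by histone type, with a dashed line at 100 bases. High levels occur on both sides of the line, at 24.4 CPM per kb for Hist2h2aa2 on the left and 25.3 for Hist1h1c on the right.

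The factors that make and process histone mRNA were described from lists of known genes. Of 19 genes for histone gene transcription and 3′ end processing, all tested, 1 was higher and 2 were lower (15.8%, against 20.2% of all genes), with a median log2 fold change of −0.15 beside 0.01 for all genes. *Ccne2* (cyclin E2, which with *Cdk2* drives entry into S phase) was read at 6.05, 7.15 and 7.95 CPM in controls and 4.72, 3.83 and 3.82 CPM in mutants (log2 fold change −0.77 ± 0.16, adjusted p = 0.0169, edgeR quasi-likelihood test). *Hinfp*, a transcription factor of H4 promoters, rose from between 19.6 and 21.5 CPM to between 26.1 and 30.1 CPM (0.43 ± 0.10, adjusted p = 0.023), and *Cstf2*, a cleavage stimulation factor, fell from between 33.2 and 35.4 CPM to between 21.3 and 28.8 CPM (−0.49 ± 0.12, adjusted p = 0.0293). Of 14 genes for histone mRNA decay, 2 were higher and 3 lower (35.7%), with a median of 0.03. Among them *Lsm5*, a subunit of the Lsm ring on decaying mRNAs, rose (1.24 ± 0.22, adjusted p = 0.0102), whereas *Atr*, the replication stress kinase, fell (−0.46 ± 0.10, adjusted p = 0.016), as did *Xrn1*, the 5′ to 3′ exonuclease (−0.61 ± 0.17, adjusted p = 0.0409). For *Lsm5*, 15.5% of the stretches occur in other genes.

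Histone variants listed as replication-independent had far more counts than the clustered genes in these libraries, whose RNA selection is not known. The 12 listed genes summed to between 1318 and 1600 CPM in controls and between 1224 and 1247 CPM in mutants. Of these, 1 was higher and 1 lower (16.7%), with a median log2 fold change of −0.03. *H3f3a*, encoding H3.3, fell from 322, 292 and 301 CPM to 216, 225 and 228 CPM (−0.45 ± 0.10, adjusted p = 0.0197, edgeR quasi-likelihood test). *H3f3c* was read at 6.32, 4.61 and 2.25 CPM in controls and 35.4, 34.0 and 44.9 CPM in mutants (3.11 ± 0.33, adjusted p = 0.00102), and 57.3% of its stretches occur in *H3f3a*, so its counts are uncertain. *H2afx*, encoding the variant that is phosphorylated at DNA breaks, was read at 28.8, 29.0 and 31.3 CPM in controls and 23.2, 22.9 and 26.2 CPM in mutants, with separate groups and an adjusted p of 0.0605. Of 19 chaperones and assembly factors, 2 were higher and 3 lower (26.3%, median −0.03). *Asf1a*, which hands H3 and H4 to the assembly complexes, fell (−0.52 ± 0.12, adjusted p = 0.0208), as did *Anp32e*, which removes H2A.Z (−0.57 ± 0.13, adjusted p = 0.0219), and *Daxx*, the H3.3 chaperone, rose (0.36 ± 0.09, adjusted p = 0.0265).

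Genes of DNA replication, with which histone synthesis is coupled, gave 2 higher and 3 lower of 41 tested (12.2%, below the 20.2% of all genes), with a median log2 fold change of −0.17. At an unadjusted p under 0.05 (edgeR quasi-likelihood test), 3 were higher and 11 lower, beside 38.3% of all genes. The log2 fold change was above 0 for 14 of the 41 genes and below 0 for 27. *Pola1*, the catalytic subunit of the polymerase that lays down primers, was read at 9.08, 9.88 and 8.79 CPM in controls and 5.36, 3.59 and 6.25 CPM in mutants (−0.87 ± 0.20, adjusted p = 0.0225, edgeR quasi-likelihood test). *Rpa3*, of the single-strand binding complex, rose (0.81 ± 0.17, adjusted p = 0.0155), as did *Rfc3*, of the clamp loader (0.56 ± 0.14, adjusted p = 0.0292). Of 16 markers of cell cycle stages, 6 were lower and 0 were higher by the same test (8 and 0 at an unadjusted p under 0.05), which is 37.5% of the list, with a median of −0.36. *Mki67*, a marker of cycling cells, was read at 64.0, 58.6 and 63.4 CPM in controls and 37.6, 40.3 and 46.9 CPM in mutants (−0.57 ± 0.11, adjusted p = 0.011). *Bub1*, a mitotic checkpoint kinase, fell as well (−1.03 ± 0.16, adjusted p = 0.0054), and so did *Ccna2*, cyclin A2 (−0.82 ± 0.14, adjusted p = 0.00813). The summed levels of this list overlapped, at 651 to 737 CPM in controls and 599 to 720 CPM in mutants. Such a sum follows the most counted genes. The list also holds the cyclin D1 gene *Ccnd1* and the CDK inhibitors *Cdkn1a* and *Cdkn1b*. Of the 17 genes named from these lists that were called, 13 lost the call without control library 2, 13 without control library 3, 8 without mutant library 1, 6 without control library 1, 1 without mutant library 2 and 0 without mutant library 3. *Ccna2* and *H3f3c* kept it under all 17 alternatives.

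Markers of cell types were described in the same way, beside the 20.2% of all genes called. All 5 tested of the 6 genes of skeletal muscle were lower in mutants, their sum lying between 8.16 and 31.0 CPM in controls and between 1.97 and 2.19 CPM in mutants. Of the 6 erythroid genes, 2 were lower (33.3%), with sums of 782 to 1320 CPM in controls and 244 to 933 CPM in mutants. Control library 1 was high for *Hist1h1c* and for *Hbb-bs* alike. Mutant library 2, however, had *Hbb-bs* at 456 CPM and the lowest *Hist1h1c* value, 19.4 CPM. The leukocyte list gave 0 higher and 1 lower of 4 tested, the Schwann cell list 1 higher and 0 lower of 4, the dental mesenchyme list 1 higher and 0 lower of 8, and the lists of odontoblast (6 genes), dental epithelium (8) and endothelium (4) gave 0 calls by the edgeR quasi-likelihood test. At an unadjusted p under 0.05, 4 of the 8 epithelial genes were higher, and 0 genes of the odontoblast and endothelium lists passed, beside 38.3% of all genes. The part of these cells in the histone values was not tested.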

How the data were processed

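The authors deposited expected or estimated counts per gene, not normalized, and a table of normalized signal, in which each deposited signal value is the estimated count plus 1 times a factor per library. The paper names TopHat 2 and counting over exons on mm10, while the submitters' processing notes name STAR 2.6.1d and Partek. The use of strand and the division of reads between copies are not given in the sources used here. Groups were taken from the labelled genotypes, and 6 other sample columns were not used. Because the design assumed whole counts, the estimated counts were rounded. Genes were filtered with filterByExpr and tested with edgeR 4.0.16 (R 4.3.3; TMM scaling, quasi-likelihood test, no block) with p-values adjusted by the Benjamini-Hochberg method over all 19330 genes. Type sums replaced the histone genes by 1 row per type in the same fit. CPM values are TMM-scaled. Every group has 3 libraries, and an exact permutation test of 3 against 3 cannot go below p = 0.1 (two-sided), so none was used. Between any 2 libraries of a group, the counts differed beyond sampling noise. Intervals are standard errors, and the floor of 3 counts covers counting error only.

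The members and the gene lists were chosen with earlier results of these data known. Named genes were, for each type, the 4 members with the smallest p and the 2 with the highest mean CPM, all *Hist1h1a* to *Hist1h1e*, the 3 genes with the smallest p in each pathway list, and *Ror2*. Coordinates and transcripts are those of GENCODE M21, whose gene starts equalled those in the file. Shared stretches were identical 75-base stretches of any transcripts of different genes on the same transcript strand. Matches on the opposite strand are not in the percentages of sharing or in the sums. The alternatives were DESeq2 1.42.0, its size factors, library size alone, other low count filters, limma 3.58.1 (limma-trend) on the normalized signal, GC and length offsets, the sample index as a replicate block, summing by shared stretches, and leaving out each library. The procedure was tested on simulated data.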

Additional observations from a re-analysis of the deposited data

How the results depend on the processing

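Leaving out each library in turn gave 1 to 3 histone genes called higher (4 with all libraries) and 1 to 7 called lower (2 with all libraries), while the share of all genes called ran from 4.39% without control library 3 to 25.2% without mutant library 3 (20.2% with all). The genes called higher numbered 2 without a low count filter (12.3% of all genes called), 2 with at least 1 CPM in 3 libraries (23.7%), 2 with a GC offset (14.6%), 1 with a GC and length offset (15.6%), 1 with the replicate block (10.4%), 1 with the block and GC offset (6.82%), 0 among genes sharing at most 10% of their stretches, and 1 after summing by shared stretches. The genes called lower numbered 6 with DESeq2 (28.0% of all genes called), 4 with library size alone (19.2%, with 2070 lower against 1903), 0 among genes with little sharing (1 gene at an unadjusted p under 0.05) and 0 after summing (2 sums at an unadjusted p under 0.05, those of *Hist3h2a* and of the group of *Hist1h1c*). The shares of all genes count both directions. Histone genes called either way numbered 5 of 63 tested without a low count filter and 4 of 12 with at least 1 CPM. Of 28 tested, 5 were called with the GC offset, 4 with the GC and length offset and 3 with the block. With the block and GC offset 4 of 28 were called, with DESeq2 9 and with library size alone 7. The paper speaks of 3 pairs of samples without saying how they were paired. For libraries with the same sample index, the deviations from the group mean had correlations of −0.1, −0.08 and −0.004. With 3 libraries per group, these values cannot show whether the libraries were paired. With the sample index as a replicate block, 3 histone genes and 2013 of all genes were called, against 6 and 3906 without it, and *Hist2h4* was at −0.033 and *Ror2* lost its call (−0.43, adjusted p = 0.0582). Of the 17 pathway genes named and called, 11 lost the call with the block, 9 with the GC offset, and 8 with the GC and length offset, where *Atr* turned to 0.041. The H2A sum lost its call with library size alone (−0.39), no low count filter (−0.38), at least 1 CPM in 3 libraries (−0.35), limma with a pseudocount of 1 (−0.35) or 0.1 (−0.35), the replicate block (−0.37) and the block with GC offset (−0.52). Leaving out each library gave −0.44 to −0.29 for H2A, −1.26 to −0.40 for H1, −0.21 to 0.043 for H2B, −0.50 to 0.083 for H3 and −0.029 to 0.86 for H4. *Hist1h1e* ran from −0.47 to 0.16 and *Hist1h4h* from −0.064 to 1.11 in the same way. *Hist2h4*, near 0, changed sign with library size alone (−9.0e-05), no filter (−0.0075), limma with a pseudocount of 0.1 (−0.012), the GC offset (−0.049), the GC and length offset (−0.14) and the block with GC offset (−0.088), and ran from −0.14 to 0.23 when each library was left out. The cause was not tested. Sharing of reads between copies, 3 libraries per group and the low counts of 35 of the 63 genes limit all of these values.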
